A study of Mus musculus with 288 samples.

Results

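The liver transcriptome of mice kept in normoxia was compared between the subjective day and the subjective night of one circadian cycle, over the 7268 of 35904 genes whose mean level was at least 5 TPM, the length-scaled share of transcripts that a gene takes, in these 24 libraries. The 12 libraries collected at 1:30, 4:30, 7:30 and 10:30 h formed the day group, and the 12 collected at 13:30, 16:30, 19:30 and 22:30 h formed the night group. All animals were 8-week-old male C57BL/6J wild-type mice, held in room air for 7 days as the control arm of an intermittent hypoxia (IH) experiment and then released into constant darkness, also in room air. Livers were taken on day 2 of darkness every 3 h, from 3 mice per time point, 1 library each. The mice had lived under 12 h of light and 12 h of darkness before, so that both groups were collected in darkness and day and night are those of the animal's clock. The labels give hours without naming their origin, and day and night follow those hours as written. The study held 288 libraries in all, from 6 tissues in normoxia and after IH, of which the 24 livers after IH and the 24 kidneys in normoxia served here as comparison groups. At the filter's edge, 2610005L07Rik and Arf2 entered with mean levels of 5.001 and 5.002 TPM, and Tent4a and Slc35a5 stayed out with 4.994 and 4.993 TPM.

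The liver clock is a loop of transcription. The activators ARNTL and CLOCK bind E-boxes and drive the period and cryptochrome genes, whose proteins return to the nucleus and repress them, while REV-ERB and ROR receptors compete on shared elements to repress or activate Arntl, Nfil3 and Cry1. Through this loop, and through the feeding and body temperature rhythms that follow activity, the liver of a nocturnal animal schedules lipid, bile acid and glycogen metabolism over the cycle.

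Each library summed to between 996911 and 998403 TPM, with 19852 to 23148 genes above 0. No counts were used, so the depth behind each value is unknown. Each SD given is the spread between the 3 mice of a time point. The standard errors also hold the differences between the 4 time points of day or of night. The tissue matched its label: the 12 hepatocyte markers summed to between 56977 and 106669 TPM by day and between 58744 and 71765 TPM at night, and Alb, encoding serum albumin, was not called (log2 change 0.06, standard error (SE) 0.0962, adjusted p = 0.801, limma). Of 43 tested markers from 15 cell type and tissue lists, 0 were called by limma, while 9 reached 0.05 before adjustment. Markers of kidney and heart stood out in 5 libraries, all of replicate number 3, 1 by day (7:30) and 4 at night (all night time points). In these the 12 kidney markers summed to between 114 and 126 TPM, of which 90.4 to 103 TPM was Kap, against 1.32 to 12.8 TPM in the other 19 libraries, and the 10 heart markers to between 75.6 and 97.9 TPM, against 6.69 to 33.6 TPM. The library of replicate 3 at 10:30 also stood apart, as the one with 106669 TPM of hepatocyte markers, and without it 87 genes were called in place of 84. It also had the highest sum of skeletal muscle markers, 46.9 TPM, and the next highest was 16.7 TPM, in replicate 2 at 19:30. The part of the kidney, heart and skeletal muscle transcripts in the results below was not tested. Results are also given without the 5 libraries high in kidney markers. In bulk liver, fewer cells of a type and less RNA per cell cannot be told apart.

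Few genes separated day from night. With log2 of TPM + 0.5 after scaling by median ratios, limma called 84 genes at an adjusted p of 0.05 or less and a change of at least 1.5-fold, 1.16% of those tested. Of these 53 were higher at night (0.729%) and 31 were higher by day (0.427%). This fit had no term for the replicate number. Without the fold limit 444 genes passed, 194 higher at night and 250 by day, and 1420 reached 0.05 before adjustment. The median change over all 7268 genes was 0.003 on the log2 scale (night minus day, as are all changes below), and 23 of the 84 called genes changed by at least 2-fold, 19 of them higher at night. In only 11 genes did the 12 day and 12 night values not overlap (0.151% of those tested), and 9 of these were called, among them Ppp1r3b, Nat8f5, Hsp90aa1 and Pfkfb1 above at night, and Clec2h, Gabarapl1, Casp6 and Rcl1 above by day. The called genes were not the most abundant, with a median mean level of 16.4 TPM against 17.3 TPM over all genes tested.

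The highest of the 8 time-point means of the 31 day genes fell at 7:30 in 20, at 4:30 in 6, at 10:30 in 4 and at 1:30 in 1. For the 53 night genes it fell at 16:30 in 27, at 13:30 in 16, at 22:30 in 6 and at 19:30 in 4. Over all genes tested, 22.3% had their highest mean at 7:30 and 16.3% at 16:30, but 2.94% at 4:30 and 3.99% at 19:30. A contrast of day with night favours such mid-phase maxima by its construction, so the gathering of called genes there was not tested.

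Among the REV-ERB and ROR receptors, Nr1d1 gave the largest change of any gene tested. Nr1d1 (chr11:98767932-98775333, mm10), encoding the repressor REV-ERBα, ran from 6.88 to 46.0 TPM by day (median 24.0) and from 0.570 to 10.49 TPM at night (median 2.02). Day and night overlapped through libraries at 1:30 and 13:30, and the fold difference was 7.73 (log2 change -2.95, SE 0.400, adjusted p = 4.08e-05). Its time-point means fell from 41.2 ± 4.96 TPM at 4:30 to 0.917 ± 0.305 TPM at 22:30 (SD, n = 3). Nr1d2, the REV-ERBβ gene, had a median of 16.7 TPM by day and 7.196 TPM at night and was not called (log2 change -1.14, SE 0.385, adjusted p = 0.0812). Rora had 6.52 and 6.67 TPM (log2 change -0.01, adjusted p = 0.992), and Rorb was below 0.07 TPM in every library.

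Of 8 listed clock repressors 5 were tested and 2 were called, both higher at night, against 0.729% of all genes tested. Cry1 (chr10:85131700-85185064), a cryptochrome that represses ARNTL and CLOCK, ran from 1.35 to 10.3 TPM by day (median 3.501) and from 7.17 to 17.6 TPM at night (median 13.9). The overlap came from the libraries at 1:30 and 13:30, and the fold difference was 2.92 (log2 change 1.54, SE 0.209, adjusted p = 4.08e-05). Cry2, its paralog, had medians of 6.61 and 7.90 TPM and a standard error of 0.177 around a log2 change of -0.003 (adjusted p = 0.995). Per2 (chr1:91415982-91459324), a period gene that is also induced by body temperature and glucocorticoids, ran from 1.11 to 7.31 TPM by day (median 3.30) and from 1.68 to 14.8 TPM at night (median 6.73). It was called by a narrow margin (log2 change 0.91, SE 0.273, adjusted p = 0.0448). This call was lost on leaving out any one of 15 libraries, all 24 but replicate 2 at 1:30 and 7:30, all 3 at 10:30, replicates 1 and 2 at 19:30 and replicates 2 and 3 at 22:30, with adjusted p up to 0.0843. Bhlhe40, a repressor that competes for E-boxes, had medians of 25.4 and 34.9 TPM (log2 change 0.64, adjusted p = 0.192), and Ciart 5.78 and 2.17 TPM (log2 change -0.15, adjusted p = 0.950). Per1, Per3 and Bhlhe41 were below the level filter.

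Several clock genes with wide cycles were not called, and their high values lay on both sides of the boundary between day and night. Dbp (chr7:45705088-45710203), a PAR bZIP activator of D-boxes driven directly by ARNTL and CLOCK, ran from 1.01 to 138 TPM by day (median 70.5) and from 1.33 to 51.8 TPM at night (median 6.74). Its log2 change of -1.72 had a standard error of 0.826 (adjusted p = 0.250), while its time-point means spanned 1.46 ± 0.493 TPM at 1:30 to 128 ± 7.23 TPM at 7:30. Tef, a second PAR bZIP factor, spanned 12.7 ± 4.05 TPM at 1:30 to 78.3 ± 47.4 TPM at 10:30, and day and night gave a log2 change of -0.03 (adjusted p = 0.981). Nfil3, the repressor of the same D-boxes, moved the other way in time, from 8.20 ± 1.41 TPM at 7:30 to 35.6 ± 5.01 TPM at 1:30 (log2 change 0.56, adjusted p = 0.253). Hlf changed by 0.23 (adjusted p = 0.427), so that 0 of the 4 genes of this list were called by limma, with 2 at 0.05 before adjustment. Arntl, whose product is the core activator, lay just under the level filter and spanned 0.454 ± 0.0909 TPM at 10:30 to 9.91 ± 2.81 TPM at 1:30. Clock, its partner, was tested and had medians of 4.11 TPM by day and 4.92 TPM at night (log2 change 0.36, adjusted p = 0.411). Usp2, a deubiquitinase of clock proteins, spanned 1.32 ± 0.156 TPM at 1:30 to 33.2 ± 10.00 TPM at 10:30 (log2 change 0.99, adjusted p = 0.343), and none of the 10 tested clock kinases and ubiquitin enzymes was called by limma (0 before adjustment). The maxima came in the order Nr1d1 at 4:30, Dbp at 7:30, Per2 at 13:30, Cry1 at 22:30 and Arntl at 1:30. A mouse liver clock is known to run in this order. The order is the same wherever the hours are counted from, so it does not show the origin of the labels.

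**Figure D1:**
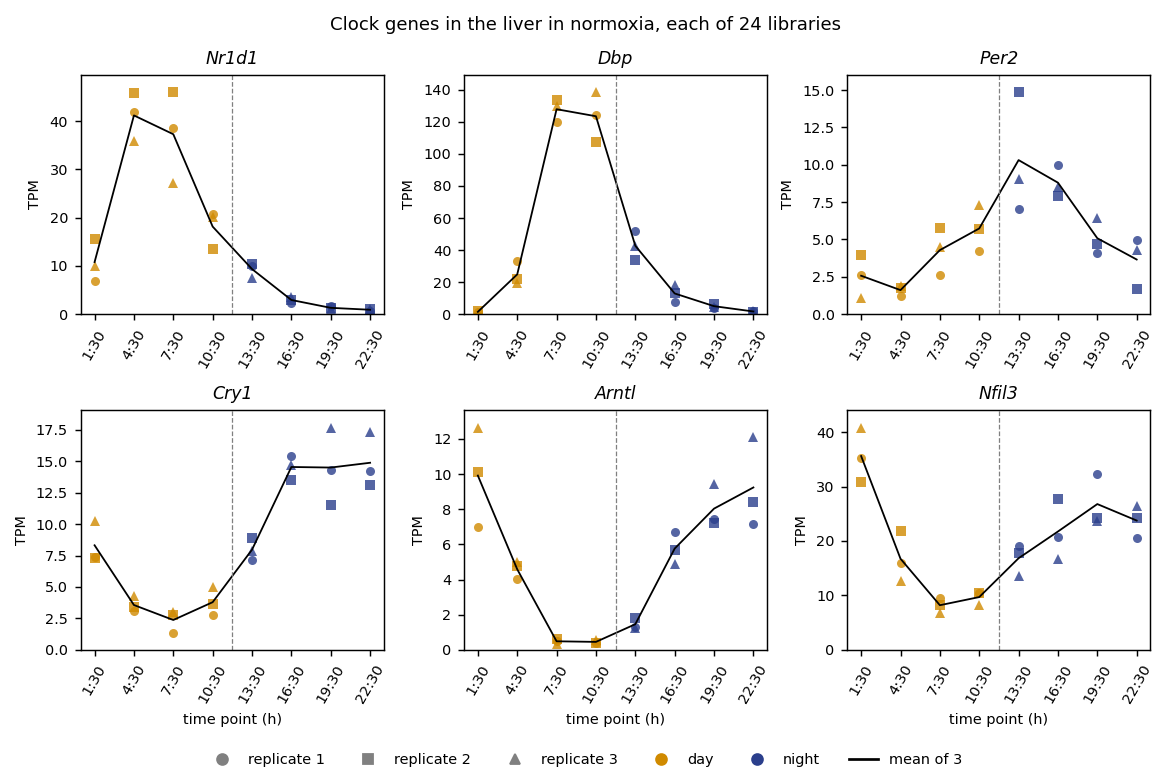
Levels of 6 clock genes in the 24 livers in normoxia, in TPM (vertical axis, from 0) against time point in hours. Points are single libraries, with shape for the replicate number and colour for day or night, the black line joins the means of 3 and the dashed line separates day from night, and the means of Nr1d1 and Dbp are highest by day at 4:30 and 7:30, those of Per2 and Cry1 at night at 13:30 and 22:30, and those of Arntl and Nfil3 at 1:30.

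The sequences before the start sites of Nr1d1 and Cry1, the called clock genes that the RefSeq table holds, are shown because both are targets of the E-box loop. They are the 250 bases before the RefSeq start, read 5′ to 3′ on the gene's strand (GRCm38.p6), and both genes lie on the minus strand. Capitals mark a match to the E-box CACGTG, the D-boxes TTATGTAA and TTATGCAA or the ROR element TAGGTCA, searched on both strands. Per2 is not shown.
Nr1d1, chr11:98775378-98775627: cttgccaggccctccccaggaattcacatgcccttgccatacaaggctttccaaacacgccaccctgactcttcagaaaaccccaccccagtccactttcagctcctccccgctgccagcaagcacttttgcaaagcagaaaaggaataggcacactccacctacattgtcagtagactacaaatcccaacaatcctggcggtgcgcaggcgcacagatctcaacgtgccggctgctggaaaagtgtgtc
Cry1, chr10:85185055-85185304: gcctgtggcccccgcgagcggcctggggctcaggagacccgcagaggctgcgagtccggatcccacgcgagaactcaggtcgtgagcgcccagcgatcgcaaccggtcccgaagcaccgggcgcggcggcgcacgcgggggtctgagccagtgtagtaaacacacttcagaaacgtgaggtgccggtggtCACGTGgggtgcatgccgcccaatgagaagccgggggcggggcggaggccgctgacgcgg
The window of Cry1 held 1 E-box, with its first base 60 bases before the start, and that of Nr1d1 held no match, which says only that these letters are absent from this window. Of 32851 promoters in the table, 6.02% held the E-box, 1.501% a D-box and 2.23% the ROR element, and of 27025 genes with at least 1 promoter there, 6.86%, 1.79% and 2.55% did. Of the 84 called genes 67 had a promoter there. The E-box was in 4 of the 40 night genes (Cry1, Hsph1, Rcan1 and Tspan4) and in 1 of the 27 day genes (Arsa), a D-box in 2 and 0, and the ROR element in 0 and 1.

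Of 22 tested genes of fatty acid and triglyceride synthesis 2 were called, against 1.16% of all genes tested, and 3 with the replicate block. The 2, Thrsp and Acly, were both higher at night. The sign was positive in 18 of the 22, called or not, against 3692 of all 7268 genes, and the median was 0.29, against 0.003. Thrsp (chr7:97412938-97417730), the thyroid hormone responsive spot 14 protein that promotes lipogenesis, was the night gene with the largest change. It ran from 80.4 to 1159 TPM by day (median 331) and from 424 to 2586 TPM at night (median 1106), with overlap (log2 change 1.85, SE 0.372, adjusted p = 0.00301). Its means rose from 216 ± 141 TPM at 1:30 to 1789 ± 693 TPM at 13:30. Acly, which makes cytosolic acetyl-CoA for lipid synthesis, ran from 36.3 to 88.8 TPM by day (median 58.5) and from 52.2 to 189.6 TPM at night (median 92.2), with a log2 change of 0.69 (SE 0.166, adjusted p = 0.0128). Fasn, the fatty acid synthase, had medians of 91.3 and 161 TPM and was not called (log2 change 0.88, SE 0.303, adjusted p = 0.0862), but it was with the replicate block (adjusted p = 0.0196). Srebf1, the transcription factor that drives these genes, had 92.0 and 123 TPM (log2 change 0.32, adjusted p = 0.402).

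Angptl8 and G0s2, which stood on no list, were among the 10 called night genes with the largest changes. Angptl8 (chr9:21835510-21837347), a secreted inhibitor of lipoprotein lipase that rises with feeding, ran from 27.7 to 192 TPM by day (median 71.7) and from 65.0 to 595 TPM at night (median 248), with a log2 change of 1.48 (SE 0.357, adjusted p = 0.0130). Its night values had 2 high points, 443 ± 131 TPM at 13:30 and 262 ± 24.9 TPM at 22:30, with 141 ± 31.5 TPM at 19:30 between them. G0s2 (chr1:193272161-193273217), an inhibitor of the triglyceride lipase ATGL, had its highest means at the same time points in reverse order, with 306 ± 192 TPM at 13:30, 422 ± 23.6 TPM at 22:30 and 41.1 ± 17.8 TPM at 7:30. It ran from 25.4 to 329.6 TPM by day (median 83.2) and from 77.8 to 527 TPM at night (median 224), a log2 change of 1.54 (SE 0.393, adjusted p = 0.0179). Plin5, a coat protein of lipid droplets that also binds ATGL, rose from a median of 25.7 to 35.1 TPM (log2 change 0.66, adjusted p = 0.00139). Plin5 was chosen after its value was seen. Tsku, a secreted liver protein of lipid handling, rose from 38.6 to 87.3 TPM (log2 change 1.22, adjusted p = 0.0204), and was likewise chosen.

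Of 26 tested genes of fatty acid oxidation and ketogenesis 2 were called, against 1.16% of all genes tested. Of the 26, called or not, 20 had a positive sign, against 3692 of all 7268 genes, and their median change was 0.09, against 0.003. The 2 called genes were Acot1 and Acot3, acyl-CoA thioesterases that release free fatty acids and sit in a cluster of near-identical copies, so that reads may have been split between them. Acot1 had medians of 27.3 TPM by day and 60.2 TPM at night (log2 change 0.94, adjusted p = 0.0311), and Acot3 of 3.54 and 7.75 TPM (log2 change 1.22, adjusted p = 0.0455). The call of Acot1 was lost without replicate 1 or 2 at 7:30, 2 at 13:30, 1 at 16:30 or 1 at 19:30 (adjusted p up to 0.0595). That of Acot3 held in only 6 of 24 omissions, of replicate 1 at 1:30 and 13:30, 3 at 7:30 and 10:30, and 1 and 2 at 22:30, with adjusted p up to 0.0856 in the others. Cpt1a, which admits fatty acids to mitochondria, changed by -0.31 (adjusted p = 0.242), and Ppara, the receptor that induces these genes, by -0.10 (adjusted p = 0.887).

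Of 21 tested bile acid genes 1 was called higher at night and 2 higher by day, against 0.729% and 0.427% of all genes tested. Cyp7a1 (chr4:6265612-6275633), the rate-limiting enzyme of bile acid synthesis, ran from 4.35 to 41.5 TPM by day (median 16.3) and from 18.3 to 71.0 TPM at night (median 33.6). Day and night overlapped, with means of 12.2 ± 1.71 TPM at 1:30 and 56.3 ± 12.8 TPM at 16:30, and the log2 change was 1.18 (SE 0.285, adjusted p = 0.0135). Hsd3b7, the next enzyme of the pathway, went the other way, from a median of 283 TPM by day to 172 TPM at night (log2 change -0.61, SE 0.159, adjusted p = 0.0204). Abcg8, which with Abcg5 forms the transporter that moves sterols into bile, ran from 13.8 to 100.2 TPM by day (median 23.5) and from 5.26 to 32.7 TPM at night (median 16.2), a log2 change of -0.90 (SE 0.235, adjusted p = 0.0202). The change of Hsd3b7 fell just under 1.5-fold (log2 change -0.56 to -0.58) without replicate 3 at 1:30, any replicate at 4:30 or 13:30, or replicate 3 at 16:30. Of the 27 genes of cholesterol synthesis and uptake 0 were called by limma and 7 reached 0.05 before adjustment.

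Of 21 tested genes of glucose and glycogen metabolism 2 were called, against 1.16% of all genes tested, and 3 with the replicate block. The 2, Ppp1r3b and Pfkfb1, were both higher at night. Ppp1r3b (chr8:35375739-35388139), which targets protein phosphatase 1 to glycogen and so turns on glycogen synthase, ran from 12.6 to 64.6 TPM by day (median 35.7) and from 70.8 to 163 TPM at night (median 115). Day and night did not overlap (log2 change 1.69, SE 0.206, adjusted p = 1.37e-05), and its means spanned 19.2 ± 6.57 TPM at 7:30 to 125 ± 19.51 TPM at 13:30. Pfkfb1 (chrX:150588229-150643878), the liver enzyme that sets fructose 2,6-bisphosphate and with it the balance of glycolysis and gluconeogenesis, ran from 8.71 to 18.6 TPM by day (median 14.6) and from 18.7 to 40.3 TPM at night (median 26.7), again without overlap (log2 change 0.85, SE 0.113, adjusted p = 3.44e-05). The gluconeogenic genes Pck1 and G6pc changed by -0.55 and 0.35 (adjusted p = 0.318 and 0.436). The sign was positive in 17 of the 21, called or not, against 3692 of all 7268 genes, and the median was 0.18, against 0.003.

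**Figure D2:**
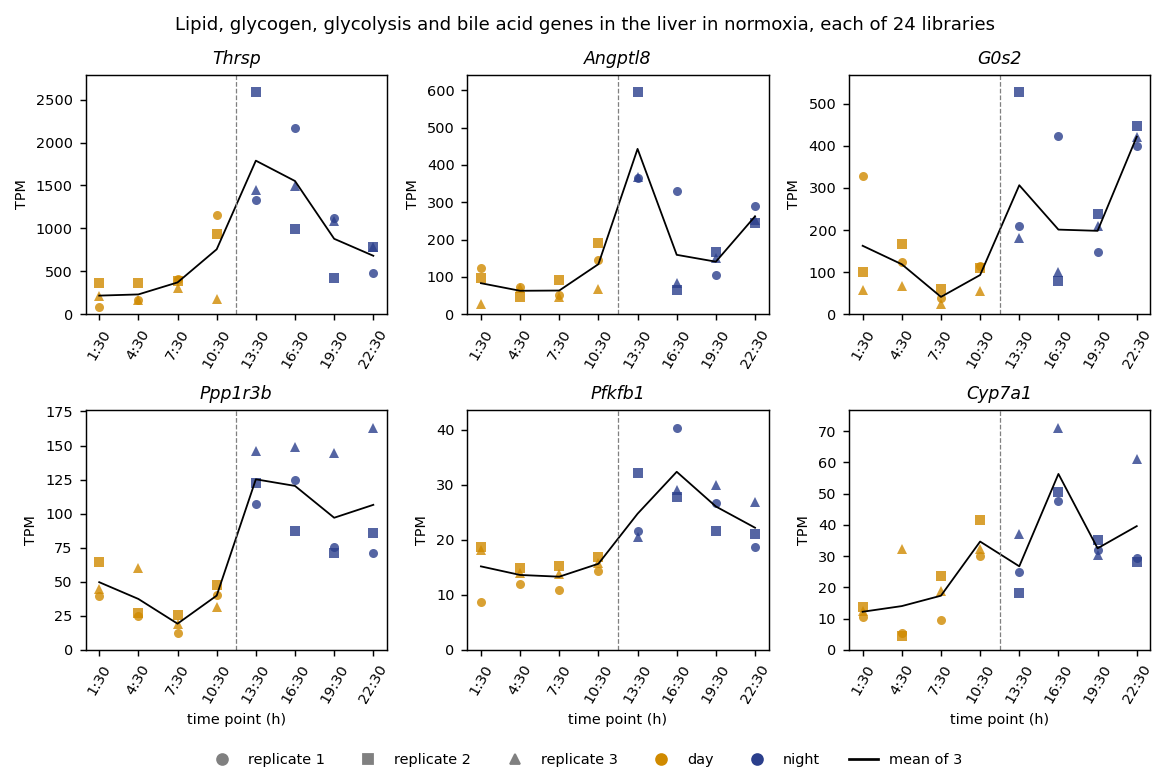
Levels in TPM (vertical axes, from 0) of Thrsp, Angptl8, G0s2, Ppp1r3b, Pfkfb1 and Cyp7a1 against time point in hours, 1 point per library with shape for the replicate number, and the mean of 3 as a line. Ppp1r3b and Pfkfb1 separate day from night without overlap, and the means of Angptl8 and G0s2 are lower at 16:30 and 19:30 than at 13:30 and 22:30.

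Among genes of heme synthesis and xenobiotic metabolism, 2 of 26 were called, against 1.16% of all genes tested. A positive sign was found in 21 of these 26, against 3692 of all 7268 genes, and their median change was 0.09, against 0.003. Ces1d (chr8:93166068-93197838), a carboxylesterase of lipid and drug hydrolysis in a family of close copies, ran from 301 to 718 TPM by day (median 469) and from 587 to 1062 TPM at night (median 759.5), with a log2 change of 0.76 (SE 0.115, adjusted p = 0.000205). Cyp2b10, the cytochrome P450 induced through the receptor CAR and a member of a family with similar sequences, had medians of 3.47 and 7.70 TPM and reached 38.1 TPM in 1 night library (log2 change 1.06, adjusted p = 0.0276). Its call was lost without replicate 1 at 7:30 or replicate 3 at 16:30 (adjusted p up to 0.0536). Alas1, the rate-limiting enzyme of heme synthesis, spanned 126 ± 36.9 TPM at 1:30 to 1516 ± 471 TPM at 13:30 but changed by 1.0001 with a standard error of 0.518 between day and night (adjusted p = 0.291). Por, the electron donor of the P450 enzymes, changed by 0.35 (adjusted p = 0.540). Nat8f5 (chr6:85817218-85820972), of an N-acetyltransferase cluster with similar copies, ran from 11.7 to 40.5 TPM by day (median 18.7) and from 40.9 to 75.8 TPM at night (median 62.5), without overlap (log2 change 1.55, SE 0.158, adjusted p = 1.45e-06).

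In NAD metabolism 1 of 13 tested genes was called, against 1.16% of all genes tested. Acmsd, which diverts the tryptophan pathway away from NAD, had medians of 10.9 and 18.8 TPM (log2 change 0.74, adjusted p = 0.0477), a call held in 7 of 24 single omissions (replicate 2 at 1:30, 1 at 4:30, 3 at 10:30 and 22:30, and all 3 at 13:30) and lost in the rest, with adjusted p up to 0.0835. Nampt, the rate-limiting enzyme of NAD salvage and a known E-box target, had 16.4 and 23.5 TPM (log2 change 0.47, adjusted p = 0.302). None of the 29 genes of amino acid catabolism and the urea cycle was called by limma, with 6 at 0.05 before adjustment, although Slc7a2, a cationic amino acid transporter with a change of -0.76, was called with the replicate block (adjusted p = 0.0722 without it and 0.00660 with it). Outside the lists, 2 enzymes of amino acid breakdown, chosen after their values were seen, were higher by day. Agxt, which detoxifies glyoxylate, had medians of 205 TPM by day and 120.1 TPM at night (log2 change -0.69, adjusted p = 0.000205), and Amdhd1, of histidine breakdown, 121 and 72.2 TPM (log2 change -0.59, adjusted p = 0.00257). The change of Amdhd1 fell under 1.5-fold on leaving out any single library at 1:30, 4:30, 13:30 or 16:30.

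Heat shock and cold-inducible proteins held the most called genes of the 23 lists. Of 20 tested, 6 rose at night and 1, the cold-inducible Cirbp, was higher by day, against 0.729% and 0.427% of all genes tested. The median change was 0.44, against 0.003 over all genes. Hsp90aa1 (chr12:110690605-110702728), the inducible cytosolic HSP90, ran from 64.9 to 129 TPM by day (median 84.0) and from 141 to 265 TPM at night (median 193), without overlap (log2 change 1.19, SE 0.135, adjusted p = 3.71e-06). Hspb1 (chr5:135887919-135889563), the small heat shock protein HSP25, ran from 22.3 to 52.6 TPM by day (median 32.1) and from 38.4 to 122 TPM at night (median 82.5), with a log2 change of 1.29 (SE 0.184, adjusted p = 8.88e-05). Hsph1 (chr5:149614287-149636376), a nucleotide exchange factor of HSP70, ran from 8.19 to 20.5 TPM by day (median 14.3) and from 16.46 to 63.7 TPM at night (median 33.4), with a log2 change of 1.10 (SE 0.221, adjusted p = 0.00301). The other called members were co-chaperones or HSP70 relatives with smaller changes, Hspa4l (0.88, adjusted p = 0.00905), the HSP70 regulator Bag3 (0.70, adjusted p = 0.0251) and the HSP70 to HSP90 adaptor Stip1 (0.63, adjusted p = 0.00177). Stip1 fell just under 1.5-fold (0.57 and 0.58) without replicate 3 at 7:30 or replicate 2 at 16:30.

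Cirbp (chr10:80165985-80172786), an RNA-binding protein that rises as body temperature falls, ran from 13.3 to 25.9 TPM by day (median 19.7) and from 8.40 to 21.4 TPM at night (median 12.8), a log2 change of -0.60 (SE 0.125, adjusted p = 0.00417). Its lowest time-point mean, 10.8 ± 1.46 TPM, was at 13:30, the time point at which Hsph1 had its highest, 51.4 ± 10.7 TPM. The fold change of Cirbp was 1.52, and it fell under 1.5 (log2 -0.56 to -0.58, adjusted p at most 0.00948) without replicate 1 at 4:30, 7:30, 13:30 or 22:30, replicate 2 at 1:30 or 7:30, or replicate 3 at 13:30 or 19:30. Inducible Hspa1b, whose near-identical copy Hspa1a can share its reads, was high at a single time point, 55.4 ± 18.9 TPM at 13:30 against 10.00 ± 3.53 TPM at 16:30 and 4.36 ± 1.58 TPM at 4:30, and was not called (log2 change 1.11, adjusted p = 0.110). Hspa8, the constitutive HSP70, spanned 386 ± 110 TPM at 19:30 to 1030 ± 105 TPM at 13:30 (log2 change 0.37, adjusted p = 0.266). Hsf1, the factor that induces heat shock genes, had a median of 7.96 TPM by day and at night (log2 change 0.06, adjusted p = 0.717).

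The 250 bases before the start of Hspb1 are shown as an example of a called chaperone gene, with capitals for the inverted repeat GAANNTTC of the heat shock element, a motif added after the gene was seen to be called (GRCm38.p6, plus strand).
Hspb1, chr5:135887669-135887918: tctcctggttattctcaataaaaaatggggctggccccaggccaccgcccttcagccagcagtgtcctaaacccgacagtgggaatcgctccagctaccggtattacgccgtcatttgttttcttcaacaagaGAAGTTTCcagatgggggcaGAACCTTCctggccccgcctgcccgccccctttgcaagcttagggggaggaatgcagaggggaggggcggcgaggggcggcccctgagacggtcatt
It held 2 matches. Of the 32851 promoters 6.69% held at least 1, as did 7.73% of the 27025 genes, and the motif was in the windows of 2 of the 40 night genes and 5 of the 27 day genes. Neither of the 2 windows listed for Hsph1 held GAANNTTC, which says only that these letters are absent from these windows. Other arrangements of the heat shock element were not searched, here or in the counts above, so its absence from Hsph1 was not tested.

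**Figure D3:**
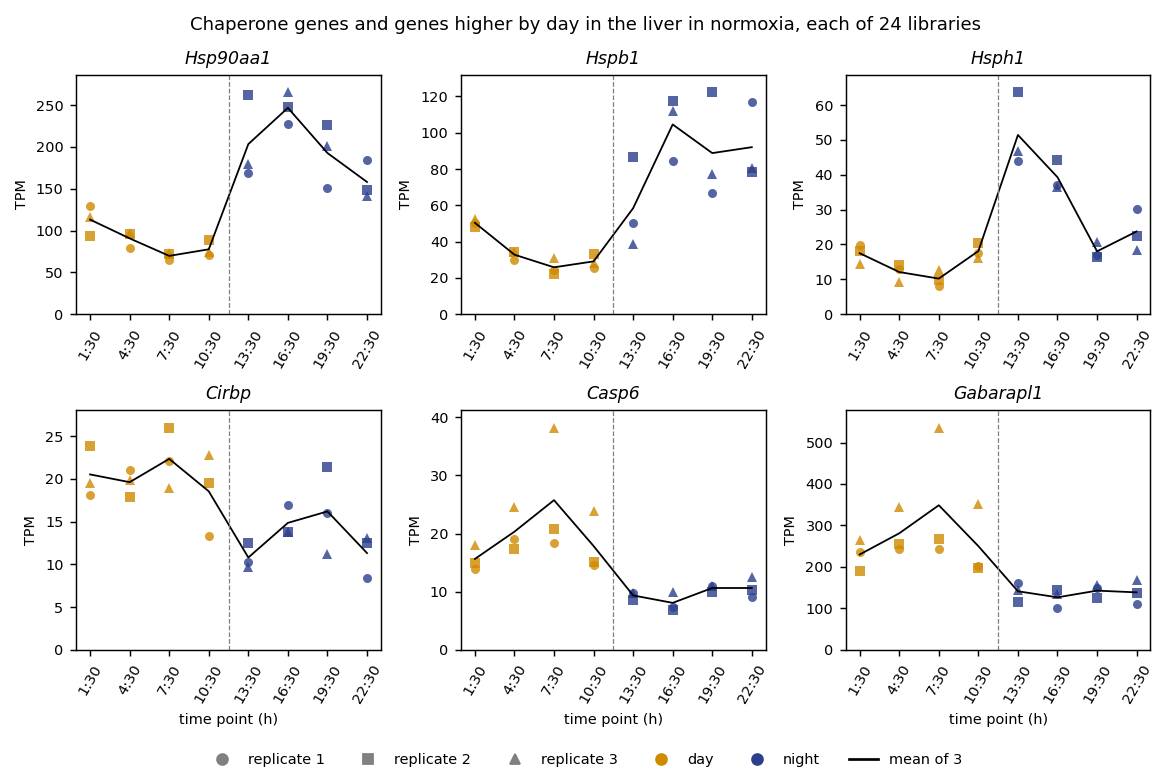
Levels in TPM (vertical axes, from 0) of the chaperone genes Hsp90aa1, Hspb1 and Hsph1, of Cirbp and of the day genes Casp6 and Gabarapl1 against time point in hours, 1 point per library and the mean of 3 as a line. Hsp90aa1 lies at or above 141 TPM at night and at or below 129 TPM by day, and Casp6 and Gabarapl1 separate in the opposite direction.

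Of 25 tested chaperones and stress genes of the endoplasmic reticulum 1 was called, against 1.16% of all genes tested, and 2 with the replicate block. The sign was positive in 22 of the 25, called or not, against 3692 of all 7268 genes, and the median was 0.25. Sdf2l1, of a chaperone complex in that compartment, rose from a median of 40.8 to 61.0 TPM (log2 change 0.67, SE 0.169, adjusted p = 0.0161), and was the only one of the list called. It fell just under 1.5-fold (0.57) without replicate 3 at 7:30. Creld2 had 30.2 and 52.4 TPM (log2 change 0.82, adjusted p = 0.0545, and 0.0349 with the replicate block), and Hspa5, the BiP chaperone, 312 and 399 TPM (log2 change 0.49, adjusted p = 0.128). Of 19 ribosome biogenesis genes 1 was called, against 1.16% of all genes tested. It was Nolc1, a nucleolar chaperone of small ribonucleoproteins, from 9.11 to 16.3 TPM (log2 change 0.69, adjusted p = 0.00446). In this list 15 of the 19 had a positive sign, and the median was 0.12, against 0.003 over all genes.

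Of 12 tested genes of the list of the glucocorticoid receptor and its targets, 2 were called, both higher at night, against 0.729% of all genes tested. The sign was positive in 8 and negative in 4, and the median was 0.04, against 0.003 over all genes. Without the fold limit 1 gene higher by day also passed. Tsc22d3 (chrX:140539528-140600659), encoding the glucocorticoid-induced leucine zipper GILZ, ran from 19.2 to 55.1 TPM by day (median 26.7) and from 42.0 to 80.4 TPM at night (median 57.9), a log2 change of 1.03 (SE 0.151, adjusted p = 0.000132). Ddit4 (chr10:59949669-59951834), encoding REDD1, a stress-induced inhibitor of mTORC1, ran from 2.50 to 7.45 TPM by day (median 3.85) and from 5.64 to 13.9 TPM at night (median 11.4), a log2 change of 1.201 (SE 0.148, adjusted p = 1.40e-05). Other genes gave wide or opposite values. Tat, tyrosine aminotransferase and itself a known glucocorticoid target although it stood on the amino acid list, changed by 0.44 (adjusted p = 0.201), and the metallothioneins Mt1 and Mt2 by -1.01 and -0.96 (adjusted p = 0.231 and 0.383), with Mt1 at 316 ± 416 TPM at 7:30, an SD above its mean. Of the growth hormone and IGF axis 0 of 15 genes were called by limma (2 at 0.05 before adjustment). Its widest change was that of Igfbp1, a fasting-induced binding protein, with medians of 15.7 TPM by day and 3.495 TPM at night (log2 change -1.36, adjusted p = 0.0974).

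Most genes higher by day stood outside the metabolic lists, as did most genes higher at night. Clec2h (chr6:128662385-128677374), a C-type lectin-like membrane protein, had the second-largest change, from 8.65 to 62.0 TPM by day (median 15.3) to 2.18 to 7.61 TPM at night (median 4.78), without overlap (log2 change -1.85, SE 0.246, adjusted p = 3.44e-05). Casp6 (chr3:129901425-129914103), an effector caspase, ran from 13.9 to 38.2 TPM by day (median 18.2) and from 6.93 to 12.6 TPM at night (median 9.86), also without overlap (log2 change -0.95, SE 0.103, adjusted p = 2.56e-06). Gabarapl1 (chr6:129533160-129542346), an ATG8-family protein of the autophagosome membrane, ran from 189.9 to 535 TPM by day (median 249.5) and from 100.1 to 168 TPM at night (median 141), again without overlap, with a log2 change of -0.95 (SE 0.107, adjusted p = 3.45e-06). It was the only called gene of 16 tested in autophagy, against 1.16% of all genes tested, and the median of the 16 was -0.04. Flcn, folliculin, a regulator of lysosomal mTORC1 signalling and of TFE3, had medians of 9.09 and 5.56 TPM (log2 change -0.79, adjusted p = 0.00139).

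Junb (chr8:84974484-84978718), an AP-1 immediate early gene, ran from 9.02 to 29.6 TPM by day (median 16.49) and from 5.07 to 11.9 TPM at night (median 6.39), a log2 change of -1.26 (SE 0.162, adjusted p = 2.49e-05). It was the single call among the 4 immediate early genes that passed the level filter, against 1.16% of all genes tested. The other 10 of the list did not pass the filter. Fbxo21, a substrate receptor of a ubiquitin ligase, had medians of 27.2 and 13.2 TPM (log2 change -1.14, adjusted p = 3.44e-05), and Slc8b1, the mitochondrial sodium and calcium exchanger, 18.9 and 9.02 TPM (log2 change -0.999, adjusted p = 0.00131). Gnat1, a transducin subunit known from rods, had 30.2 and 17.7 TPM (log2 change -0.73, adjusted p = 0.00164). By limma, 0 genes were called among 6 cell cycle regulators, 14 genes of the actin cytoskeleton and 22 plasma and acute-phase proteins, with 1, 1 and 4 at 0.05 before adjustment.

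**Figure D4:**
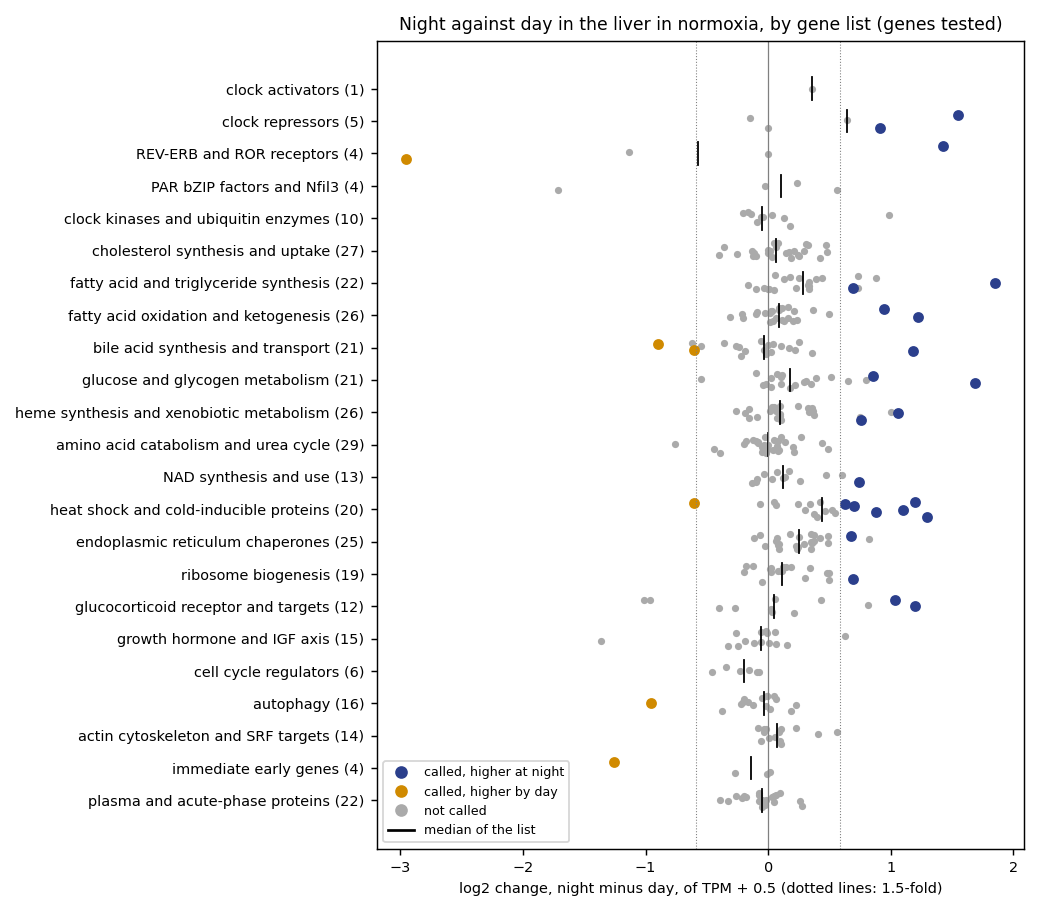
Log2 change, night minus day, of every tested gene in the 23 lists (horizontal axis), with the number tested in parentheses, grey for genes not called, blue for called genes higher at night, orange for those higher by day, a black bar for each list's median and dotted lines at 1.5-fold. Heat shock and cold-inducible proteins hold 6 blue points and 1 orange point, and 9 lists hold none of either.

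Tnnc1, slow muscle and cardiac troponin C, ran from 1.72 to 6.93 TPM by day (median 3.22) and from 5.18 to 14.8 TPM at night (median 8.12), with a log2 change of 1.29 (SE 0.164, adjusted p = 2.00e-05). In the 19 libraries low in kidney markers (sums up to 12.8 TPM) it still ran from 1.72 to 5.83 TPM by day and from 5.18 to 12.1 TPM at night (adjusted p = 0.000460). Leaving out the 5 libraries high in kidney markers, 4 of them at night, 71 genes were called, among them 52 of the 84, and all 84 kept their sign. This left no library of replicate number 3 at night, but kept those at 1:30, 4:30 and 10:30 by day. The fit had no replicate term, although the first principal component (39.6% of variance) set number 3 apart. Effects of kidney transcripts, of replicate number 3 and of fewer night libraries therefore cannot be told apart here. Named genes whose call was lost were Per2 (adjusted p = 0.108), Acly (0.0767), Cyp7a1 (0.0790), Acot1 (0.0515), Acot3 (0.0894), Cyp2b10 (0.0889), Tsku (0.0886), Hspa4l (0.0739), Bag3 (0.0593) and Rcan1 (0.0533). Cirbp kept an adjusted p of 0.0391 but fell under 1.5-fold (log2 change -0.50).

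In the 24 livers taken after 7 days of IH from other mice on the same schedule, all 84 called genes had the sign seen in normoxia, against 72.5% of all 7268 genes. The median change there was 0.70 for the 53 night genes and -0.69 for the 31 day genes, with -0.01 over all genes. The spread was wider, with a median standard error of 0.173 against 0.0955 in normoxia, and 12 genes were called after IH (0.165%), of which 10 were among the 84. Those included Nr1d1 (-2.56), Clec2h (-1.999), Cry1 (1.42), Ddit4 (1.29), G0s2 (1.77) and Hspb1 (1.82). The difference of the night against day change between the treatments was past an adjusted p of 0.05 in 0 of 7268 genes (0%) by limma, with 16 at 0.05 before adjustment and a smallest adjusted p of 0.9996. The median SE of this difference was 0.205 on the log2 scale. With a replicate block in each group the SE was 0.165, and 0 genes passed, with 38 at 0.05 before adjustment. These values do not show that the changes were equal. The most unequal values of the genes named were those of Thrsp, 1.85 in normoxia and 1.09 after IH, and Junb, -1.26 and -0.53.

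In the kidney in normoxia, from the same schedule, 6616 genes had a mean of at least 5 TPM in both tissues, and 29 were called between day and night (0.438%). Without the fold limit 569 of the 6616 passed in the kidney, more than the 444 of 7268 in the liver. The median SE was 0.0691 in the kidney and 0.0955 in the liver. The labels do not tie livers to kidneys, which may come from the same mice, and the test took them as independent. Of the 84 liver genes 56 were measured there, and 47 had the same sign, against 61.0% of all genes. Among clock genes, Nr1d1 changed by -2.48 and Cry1 by 1.73 in the kidney, and the test of the difference from the liver gave adjusted p of 0.631 and 0.927. Cirbp changed by -0.63 in the kidney against -0.60 in the liver (adjusted p of the difference 0.957). The change differed between the tissues in 52 genes (0.786%), 26 in each direction, and 16 of these were among the called liver genes. Casp6 gave the smallest p, -0.95 in the liver and -0.02 in the kidney (difference -0.93, SE 0.121, adjusted p = 4.11e-06). Gabarapl1 (difference -0.68, adjusted p = 0.00285), Junb (-1.06, adjusted p = 0.00242), Flcn (-0.80, adjusted p = 0.00943) and Clec2h (-1.36, adjusted p = 0.0138) were also lower at night in the liver relative to the kidney. In the other direction, Tsku changed by 1.22 in the liver and -0.22 in the kidney (adjusted p of the difference 0.0310) and Ddit4 by 1.201 and 0.46 (0.0222). The 52 became 165 with a replicate block and fell to 1, 6 and 3 genes without replicates 1, 2 and 3.

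**Figure D5:**
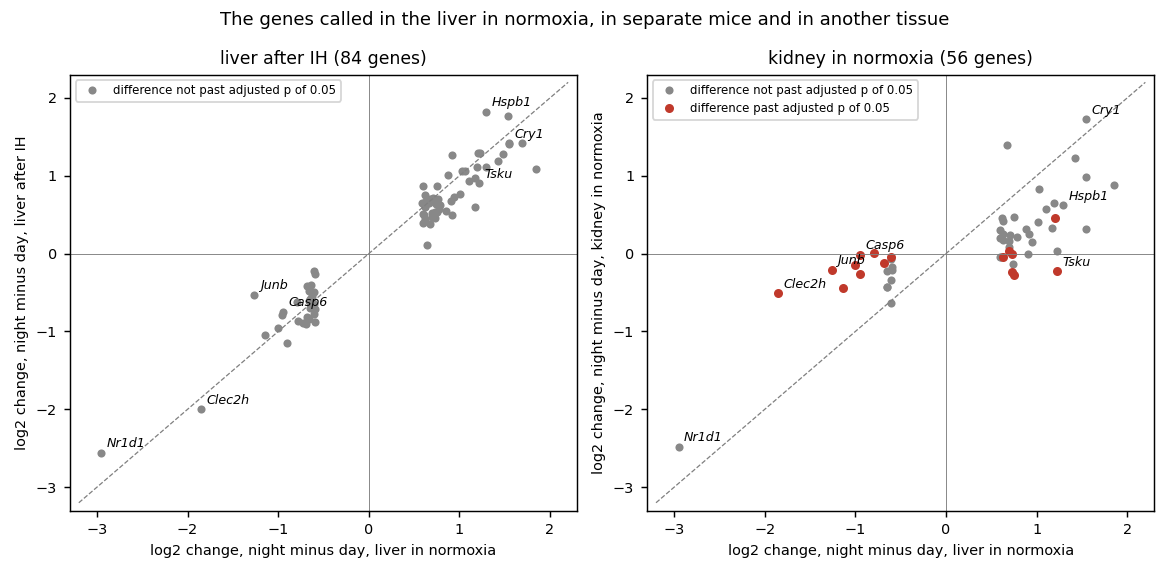
Log2 change, night minus day, of the genes called in the liver in normoxia (horizontal axes) against the change in the liver after IH (left, 84 genes) and in the kidney in normoxia (right, 56 genes), 1 point per gene, with the line of equality dashed and red for genes whose change differs at an adjusted p of 0.05 or less. No point is red on the left, and on the right the 16 red points include Casp6, Junb, Clec2h and Tsku near or toward 0 on the kidney axis.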

How the data were processed

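Genes and lists were chosen with earlier results of these data known. The deposited values are TPM per gene: the authors selected poly(A) RNA, sequenced directional libraries, quantified reads with kallisto against Ensembl release 102 and summed transcripts to genes. The submitters' processing notes also name bcl2fastq, FastQC 0.11.3, DESeq2 and mm10. Estimated counts were not used here, so count tests could not be run and the depth of each library is unknown. TPM keep relative amounts, so that a few abundant genes can shift all others.

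TPM were divided by median-of-ratios size factors (0.857 to 1.24), log2(TPM + 0.5) was taken, which understates the change of low genes, and limma 3.58.1 (R 4.3.3, moderated statistics with an intensity trend) compared 12 night with 12 day libraries over 7268 genes, with Benjamini-Hochberg adjustment. The difference between groups was the interaction of phase (night or day) with treatment or tissue, fitted on log values of separately deposited tables, scaled jointly. Calls needed an adjusted p of 0.05 or less and at least 1.5-fold. The fits were tested on simulated data. Alternatives changed the scaling, pseudocount, level filter, trend and thresholds, fitted one mean per time point or a replicate block, and left out replicates, time points or libraries. Day and night each pool 4 time points, whose differences enter the spread. Named were the clock genes, the 10 largest called changes in each direction without predicted genes, up to 6 called genes per list and a fixed set, and genes added later are marked. Gene positions are GENCODE M21 (GRCm38).

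Replicate numbers come from the labels, which do not tie them to a litter or day. Deviations of same-numbered day and night libraries from their group means correlated across genes at r = 0.83, 0.69 and 0.88 for numbers 1, 2 and 3. The main fits, from which the changes, SE and adjusted p come unless marked, had no replicate term and so left this pairing out. The paired fit with a replicate block is given where it changes a call. The first principal component (39.6% of variance) set all 8 libraries of number 3 apart. No library pair was identical. Some genes are not reported here.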

Additional observations from a re-analysis of the deposited data

Results flagged for a closer look

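The night against day change differed between liver and kidney in 52 genes by the interaction test. Among the genes named, the difference of the log2 change, liver minus kidney, was -1.36 for Clec2h, -1.06 for Junb, -0.71 for Fbxo21, -0.86 for Slc8b1, -0.68 for Gabarapl1, -0.93 for Casp6, -0.80 for Flcn and 0.78 for Ddit4. In the liver in normoxia each library was left out of the night against day fit in turn. Means of 3 libraries, and the libraries of the other groups, were not examined for single outlying values.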

How the results depend on the processing

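All 84 called genes kept their sign in every alternative, and the counts moved. With the paired fit (replicate block) 99 genes were called, all 84 among them, 62 higher at night and 37 by day, and besides Fasn, Creld2 and Slc7a2 it changed no call of a tested gene named in the text. The 84 calls (53 night, 31 day) became 39 (28 and 11) at a mean of at least 20 TPM, 444 (194 and 250) with no fold limit, 17 (13 and 4) at an adjusted p of 0.01 and 2-fold, 47 (28 and 19) without 7:30, 52 (31 and 21) without 16:30, and 133 (85 and 48) with the replicate block and one mean per time point, an alternative chosen after seeing the data, as were those on kidney transcripts and single libraries. The day count alone moved to 17 with a pseudocount of 2, 53 at a mean of at least 1 TPM and 56 without 1:30. Leaving out a replicate number or a single library gave 37 to 95 calls, 23 to 60 at night and 14 to 41 by day, with 37, 47 and 60 calls without replicates 1, 2 and 3. The 52 genes that differed between liver and kidney became 186 with TPM as deposited, 155 with one mean per time point, 165 with the replicate block and 1 to 6 without a replicate. The cause was not tested. Leaving out one time point ended calls of some named genes, among them Per2 (adjusted p up to 0.231), Acot3 (up to 0.186), Acot1 (up to 0.172), G0s2 (0.115 without 7:30), Angptl8 (0.0767 without 13:30), Abcg8 (0.0891 without 7:30), Cyp7a1 (0.0940 without 16:30), Acly (0.0725 without 16:30) and Bag3 (0.104 without 4:30 or 13:30). The depth of each library is unknown from TPM, so it sets no limit that could be stated for a low gene.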
